A study of Mus musculus with 2 samples.

Results

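The 10 genes described here, Hmox1, Fth1, Ftl1, Slc40a1, Slc11a1, Blvrb, Nqo1, Gclm, Txnrd1 and Srxn1, handle heme and iron or belong to the antioxidant programme of the transcription factor Nrf2. They were chosen by symbol from the 27998 genes counted, and all 10 were found in both libraries. Single cells were profiled from tumours of TSA, a mouse mammary adenocarcinoma line, grown in female BALB/c hosts, within an age range of 6 to 15 weeks that is stated for all mice together. One library came from untreated animals and the other from animals given NAM (nicotinamide, a form of vitamin B3) at 0.5% in the drinking water for 10 days. Each library pooled the tumours of 3 mice before leukocytes were enriched on beads for the surface protein CD45, so each group is 1 library and no difference below has a replicate check.

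The untreated library held 2922 cells and the NAM library 3276, with 29161823 and 32090120 UMIs (unique molecular identifiers, each standing for 1 captured RNA molecule). Levels are given as CPM, the UMIs of a gene per 1000000 UMIs of the cells summed, and are written with the untreated value first. They come from the 3′ ends of transcripts and are not scaled to transcript length, so levels of different genes are compared only with themselves across cells. A log2 ratio is NAM over untreated unless stated. The ranges in brackets are exact 95% intervals that cover counting error alone, not the spread between mice. Treatment with NAM and any other difference between the 2 libraries cannot be told apart. In a pool, fewer cells that use a gene and less RNA per cell cannot be told apart from the CPM.

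Cells were assigned to types by UMIs of marker genes that are none of the 10. Macrophages, gated on the complement genes C1qa, C1qb and C1qc, numbered 1984 untreated and 2205 with NAM. They were divided into 555 and 559 Vcam1 Dnase1l3 macrophages, 63 and 115 Mmp12 macrophages, 19 and 37 that met both of these gates, 243 and 237 cycling, 114 and 129 interferon-high, and 990 and 1128 others. Ly6c2 monocytes numbered 210 and 230, myeloid cells high in Tgfbi and Htra3 101 and 114, and myeloid cells high in Ctsk and Acp5, genes best known from osteoclasts, 128 and 151. The lymphoid gates held 202 and 270 T cells and 57 and 32 NK cells. Dendritic cells (DC) were few, with 28 and 32 of the cross-presenting type cDC1, 14 and 15 mature DC and 41 and 41 Cd209a DC. Genes that were not used for gating were read for the T cell, NK cell, pooled macrophage, monocyte and DC gates, and not for the macrophage subsets, the Tgfbi Htra3 cells or the Ctsk Acp5 cells. The T cell kinase gene Lck stood at 502 and 576 CPM in T cells against 10.5 and 6.53 CPM elsewhere. Mrc1 and Apoe were over 2 log2 units higher in macrophages than in other cells in both libraries, whereas Cd68 was higher by 0.39 and 0.35. In monocytes Vcan was over 4 log2 units higher than elsewhere and F13a1 by 0.15 and 0.87.

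Some RNA that belongs to other cells differed between the libraries. A list of 6 red blood cell genes had 596 UMIs without and 23280 with NAM, of which 21957 lay in 5 droplets (7022 UMIs in a Ly6c2 monocyte and 6664 in a CD8 T cell). Without those 5 the NAM library held 41.3 CPM against 20.4 CPM. Droplets with a UMI of the list made up 17.3% of the untreated and 31.4% of the NAM cells. Within macrophages the summed log2 ratio was 0.49 for 5 fibroblast genes, 0.45 for 6 tumour epithelial genes, 0.23 for 5 neutrophil genes, 0.35 for 3 mast cell genes, -0.36 for 4 B cell genes and -0.05 for 3 endothelial genes. Of the 4 B cell genes 3 were higher with NAM and 1 lower, so that sum rests on 1 gene. Heat shock genes were lower with NAM in macrophages (-0.36, 10 of 10 genes), in monocytes (-0.24, 10 of 10) and in T cells (-0.44, 9 of 10). The sum of immediate early genes was higher in macrophages (0.12, 7 of 8 genes), in monocytes (0.33, 7 of 8) and in T cells (0.13, 5 of 8 higher and 3 lower). Leaving out the 5 droplets moved no ratio of the 10 genes at 1.5-fold or more below that mark. What the remaining red blood cell RNA and the other lists contribute to the values of the 10 genes was not tested.

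Macrophages recover iron from dead cells and from haemoglobin. Heme oxygenase-1, the product of Hmox1, opens the heme ring and releases iron, biliverdin and carbon monoxide. Blvrb encodes biliverdin reductase B, which reduces some biliverdins as well as flavins. Iron that is not used is stored in ferritin, a shell of heavy (Fth1) and light (Ftl1) chains, or leaves the cell through ferroportin (Slc40a1), the known iron exporter of mammals. Slc11a1 (Nramp1) moves metal ions out of the phagosome of myeloid cells. Nrf2, encoded by Nfe2l2, is held back by Keap1 and, when released, binds antioxidant response elements of genes such as Nqo1, Gclm, Txnrd1 and Srxn1, while the heme-sensing repressor Bach1 competes for such elements, including those of Hmox1 and the ferritin genes.

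The promoters of some antioxidant members hold the letters of such an element. RefSeq windows on GRCm38.p6, from 250 bases before to 50 bases after each annotated start, were available for 8 of the 10 genes (12 windows, none for Hmox1 or Slc40a1). They were searched on both strands for the element's core, TGACNNNGC, and for the related AP-1 core, TGAGTCA. On its opposite strand this core begins with the same bases as the first one, so the patterns can overlap, which they do in none of the stretches shown. The element's core was found near the starts of 3 members, Gclm, Txnrd1 and Srxn1, in 1 window of each. The AP-1 core was found near the start of Srxn1, in its 1 window. Of all 32851 windows of this length, 12.4% held the element's core and 5.20% the AP-1 core. The core of Srxn1 lies after its start and is not shown, and its stretch shows the pair of AP-1 cores. The second of these is followed by gc, so its letters differ from the element's core only by a G for the first C. That form was not searched for. The stretches below lie upstream of the starts of Gclm (chr3:122245403-122245451, plus strand), Txnrd1 (chr10:82859094-82859142, plus strand, 1 of its 3 windows) and Srxn1 (chr2:152105402-152105505, plus strand). Capitals mark the cores, which in Gclm and Txnrd1 lie on the minus strand and therefore read as their reverse complement. A match is a description of letters and not a bound site.
Gclm: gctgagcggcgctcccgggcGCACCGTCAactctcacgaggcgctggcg
Txnrd1: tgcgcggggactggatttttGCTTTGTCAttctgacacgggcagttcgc
Srxn1: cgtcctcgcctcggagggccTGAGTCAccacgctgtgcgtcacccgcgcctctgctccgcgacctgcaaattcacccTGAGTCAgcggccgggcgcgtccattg

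Hmox1 (chr8:75093621-75100589, plus strand, protein coding) differed most clearly between macrophage subsets. It was highest in the macrophages gated on Mmp12, a macrophage elastase, at 1303 and 1159.6 CPM, followed by macrophages with both marker sets at 728 and 339 CPM. From the Ly6c2 monocytes (250 and 291 CPM) downwards the ranges of the 2 libraries overlapped from one gate to the next, through other macrophages (297 and 210.2 CPM), interferon-high (295 and 110.4), Vcam1 Dnase1l3 (204 and 127) and cycling macrophages (131 and 175). The CD8 T cells held 12.6 and 7.83 CPM and the NK cells 12.2 and 6.41 CPM, from 6 UMIs or fewer in each.

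**Figure D1:**
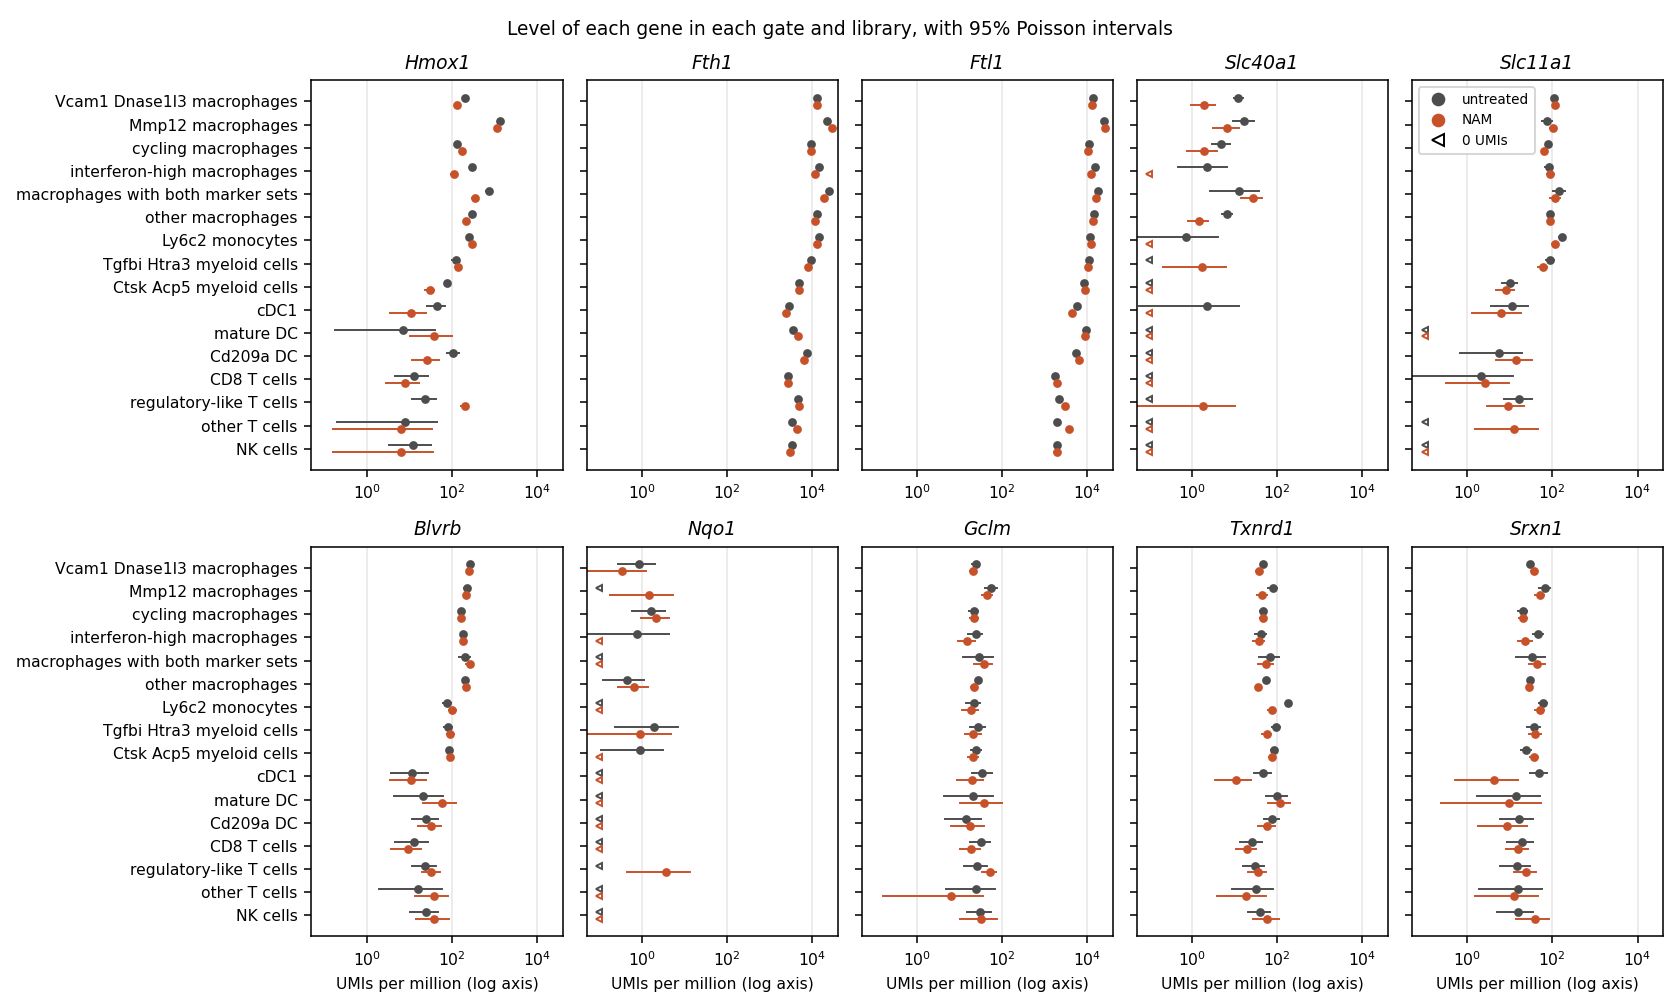
CPM of each of the 10 genes (log axis) in each cell gate, with the untreated and the NAM library as separate points, exact 95% Poisson intervals as bars and open triangles for 0 UMIs. Hmox1 and Ftl1 were highest in the Mmp12 macrophages of both libraries and Txnrd1 in Ly6c2 monocytes of the untreated library, while Nqo1 and Slc40a1 had 0 UMIs in several gates.

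Against the Vcam1 Dnase1l3 macrophages, the Mmp12 macrophages carried 2.68 log2 units more Hmox1 in the untreated library (2.56 to 2.80) and 3.19 in the NAM library (3.06 to 3.32). That Hmox1 accompanies Mmp12 was known from these data before the gates were drawn, so the size of the gap is given as a description. Over 5 alternative ways of gating, scaling and weighting, it stayed between 2.60 and 2.81 in the untreated and between 2.38 and 3.31 in the NAM library.

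The RNA of Hmox1 was concentrated in few cells, although most macrophages had a UMI of it. In macrophages of the untreated library 1% of the cells held 31.4% of its UMIs and 10% held 67.2%, and in the NAM library 33.9% and 71.1%. For Fth1 the same 1% held 7.12% and 6.67%, for Blvrb 6.25% and 5.29%, for Txnrd1 11.5% and 9.88% and for Srxn1 20.9% and 14.6%. The value for Srxn1, a sparse gene, also rises because few cells have any UMI of it. A single Mmp12 macrophage of the untreated library contributed 227 of the 1002 Hmox1 UMIs of its gate, and the highest in the NAM library 134 of 1550. The cells with most Hmox1 of all lay among the other macrophages, with 398 of 2684 UMIs in the untreated and 181 of 2206 in the NAM library.

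**Figure D2:**
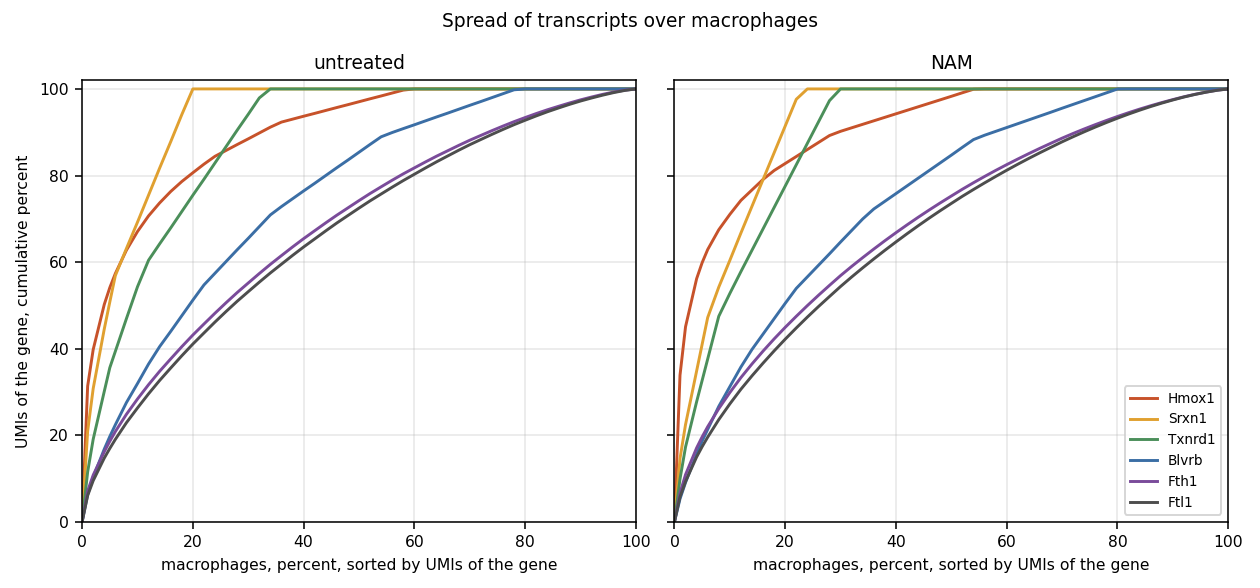
Cumulative percent of a gene's UMIs (vertical axis) held by the macrophages with most of them (percent of macrophages, horizontal axis), for 6 members, untreated left and NAM right. At 1% of the cells the curve of Hmox1 is the highest drawn, at 31.4% and 33.9% of its UMIs, and Fth1 and Ftl1 lie lowest over most of the range.

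Compared between the libraries, Hmox1 was lower with NAM in all macrophages together, at 283 and 236 CPM (log2 ratio -0.27, -0.32 to -0.21). It was lower in 5 of the 6 macrophage gates, and with the 6 gates weighted alike in both libraries the ratio was -0.42. The pooled ratio ran from -0.46 to -0.11 over 11 alternatives. The Vcam1 Dnase1l3 macrophages went from 1178 UMIs (204 CPM, 192 to 215) to 730 (127 CPM, 118 to 137), a log2 ratio of -0.68 (-0.81 to -0.54), and the interferon-high macrophages from 386 UMIs to 148, a ratio of -1.42 (-1.70 to -1.14). Both of these ratios depended on how the gate was drawn. When markers were read after thinning every cell to 3000 UMIs they shrank to -0.23 and -0.46, and over all 10 alternatives they ran from -0.77 to -0.23 and from -1.76 to -0.46. The other macrophages stood at 297 and 210.2 CPM (-0.50, -0.58 to -0.42, alternatives -0.66 to -0.18).

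In the Mmp12 macrophages, those with both marker sets, the cycling macrophages and the Ly6c2 monocytes, the direction for Hmox1 was not stable. The Mmp12 macrophages gave a ratio of -0.17 (-0.28 to -0.05), with alternatives from -0.66 to 0.74. The macrophages with both marker sets gave -1.10 (175 and 168 UMIs, -1.41 to -0.79), but 1 untreated cell held 83 of those UMIs and the alternatives ran from -1.12 to 2.78. The cycling macrophages were higher with NAM (488 and 642 UMIs, 0.41, 0.24 to 0.59), but 1 NAM cell held 175 of those UMIs and the alternatives ran from -0.54 to 0.42. In Ly6c2 monocytes the ratio was 0.22 (0.00 to 0.43), 1 NAM cell held 131 of 383 UMIs, and the alternatives ran from -0.86 to 0.24. The Ctsk Acp5 cells showed a steadier difference, from 177 UMIs (77.9 CPM) to 75 (29.8 CPM), with a ratio of -1.38 (-1.79 to -0.99, alternatives -1.40 to -1.11). In cDC1 the gene had 19 and 5 UMIs (-2.03, -3.81 to -0.56). In Cd209a DC it had 38 and 9 (-2.03, -3.26 to -0.95), with 28 of the 38 in 1 cell.

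The share of macrophages with an Hmox1 UMI was 58.8% (56.6 to 61.0) in the untreated and 54.2% (52.1 to 56.3) in the NAM library. The median macrophage held 9847 and 9815 UMIs. With every cell thinned to 3000 UMIs the shares were 33.2% and 26.4%. T cells, which were shallower at a median of 4512.5 and 4385 UMIs, had a UMI of the gene in 7.43% and 4.81% of cells, or 5.94% and 1.85% after thinning, well under the macrophage shares. The sum of UMIs gave the opposite picture in T cells, with 18 in untreated and 116 in NAM cells (2.24, 1.51 to 3.04). One droplet of the regulatory-like T cell gate in the NAM library held 103 of the 116, together with 153 UMIs of Mmp12, 19 of the C1q genes and 4 of the Cd3 genes. Without that droplet the NAM T cells held 13 UMIs, or 8.85 CPM, and without its own highest cell the untreated library held 13.2 CPM.

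Blvrb (chr7:27447978-27466144, plus strand), the biliverdin and flavin reductase, followed a different pattern from Hmox1. Within macrophages it was at 266 and 254 CPM in the Vcam1 Dnase1l3 gate, 199.7 and 261 in those with both marker sets, 225 and 217 in the Mmp12 gate and lowest in cycling cells at 159 and 159. The Ly6c2 monocytes held 76.5 and 102 CPM, 1.47 log2 units below all macrophages in the untreated library (-1.76 to -1.20) and 1.08 below in the NAM library (-1.34 to -0.83). T cells held 17.6 and 21.0 CPM. Between the libraries the macrophage value moved by 0.02 (-0.04 to 0.07, alternatives -0.01 to 0.05), and the monocyte value by 0.41 (0.03 to 0.79). A Blvrb UMI was found in 78.5% and 80.0% of macrophages (45.0% and 42.9% thinned) and in 5.94% and 8.52% of T cells (2.97% and 4.44% thinned).

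The ferritin genes Fth1 (chr19:9980598-9985098, plus strand) and Ftl1 (chr7:45457944-45459884, minus strand) encode the heavy and the light chain. Together they made up 2.37% of all UMIs in untreated and 2.34% in NAM cells. Every macrophage had a UMI of each. Ferritin has near-identical pseudogene copies in the mouse genome, so the assignment of reads between copies is uncertain. Of other symbols beginning with Fth or Ftl, only the 6 Fthl17 genes were found, with 0 UMIs. This does not show how reads of pseudogene copies were assigned.

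Both chains were high in the Mmp12 macrophages. Fth1 stood at 21871 and 28630.0 CPM there, against 12760.0 and 12736 in the Vcam1 Dnase1l3 macrophages, a gap of 0.78 (0.75 to 0.80) and 1.17 (1.15 to 1.19) log2 units. The untreated value was passed only by the 19 macrophages with both marker sets, at 24028 CPM. Ftl1 stood at 23901 and 25203 CPM in the Mmp12 gate against 13668 and 12757 in the Vcam1 Dnase1l3 gate, a gap of 0.81 (0.78 to 0.83) and 0.98 (0.96 to 1.00). Ferritin thus took 4.58% and 5.38% of the UMIs of Mmp12 macrophages and 2.64% and 2.55% of those of Vcam1 Dnase1l3 macrophages. Over 5 alternatives the gap of Fth1 ran from 0.67 to 1.02 and from 0.95 to 1.22, and that of Ftl1 from 0.71 to 0.91 and from 0.73 to 1.04.

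Outside the macrophages the ferritin share was 2.57% and 2.50% in Ly6c2 monocytes, 1.30% and 1.37% in Ctsk Acp5 cells, 0.841% and 0.677% in cDC1, 0.553% and 0.622% in T cells and 0.521% and 0.494% in NK cells. The ratio of Fth1 to Ftl1 UMIs differed by type. It is not scaled to length, so only its change from one type to another can be read. It was 0.911 and 0.940 in macrophages, 0.595 and 0.550 in Ctsk Acp5 cells, 0.502 and 0.531 in cDC1 and 0.380 and 0.525 in mature DC. It was highest in lymphocytes, at 1.84 and 1.47 in T cells and 1.71 and 1.62 in NK cells. The Ly6c2 monocytes (1.26 and 1.07) and Cd209a DC (1.38 and 1.04) lay between the T and NK cells and all macrophages together in both libraries. Among macrophages the ratio was 1.39 and 1.16 in those with both marker sets, above both of these types, and 0.915 and 1.14 in the Mmp12 gate, above both in the NAM library alone.

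**Figure D3:**
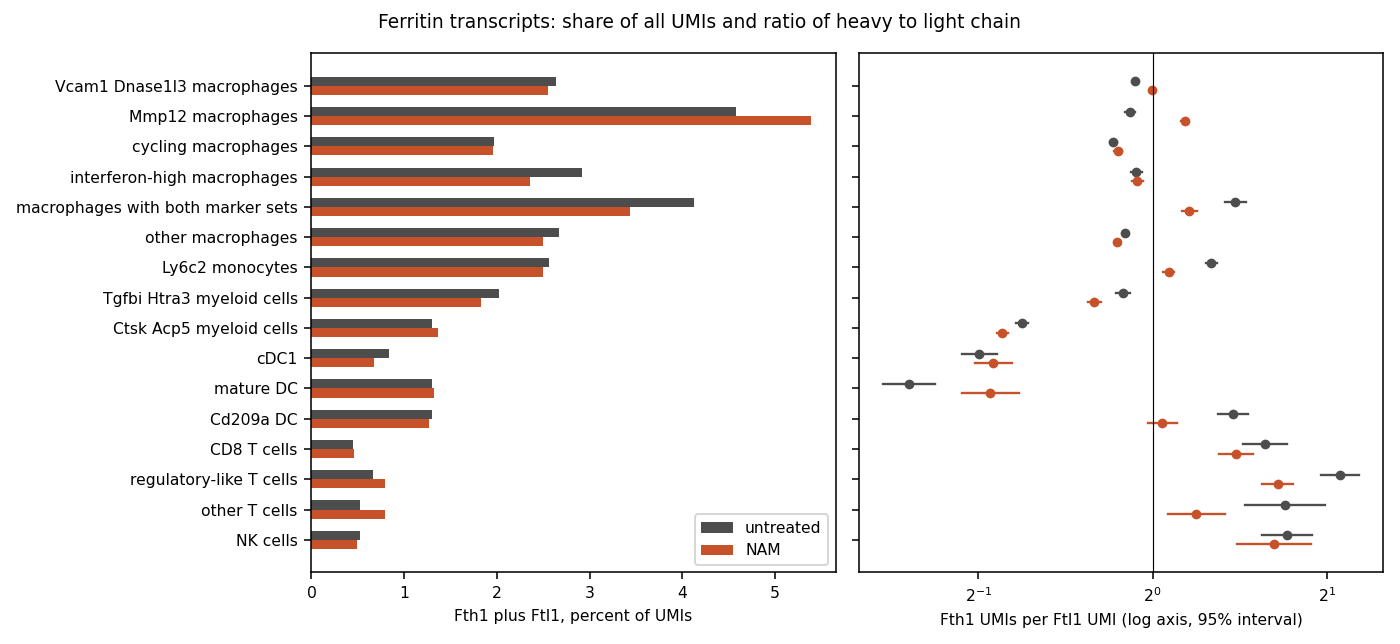
Percent of all UMIs in the ferritin genes (bars, left) and ratio of Fth1 to Ftl1 UMIs, not scaled to length, with exact 95% intervals (points, right, log axis), by cell gate and library. The ratio is higher in T and NK cells than in Ctsk Acp5 cells, cDC1 and mature DC, and the ferritin share peaks at 4.58% and 5.38% in Mmp12 macrophages.

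Ferritin RNA in macrophages barely differed between the libraries. Fth1 stood at 12592 and 12603 CPM (0.00, -0.01 to 0.01) and Ftl1 at 13816 and 13409 CPM (-0.04, -0.05 to -0.04), and the alternatives stayed within -0.05 to 0.03 and -0.08 to -0.01. Single macrophage gates moved in both directions. In the Mmp12 macrophages Fth1 was higher with NAM (0.39, 0.36 to 0.41, alternatives 0.13 to 0.54) and Ftl1 gave 0.08 (alternatives -0.11 to 0.13). In interferon-high macrophages Fth1 gave -0.30 (-0.33 to -0.27, alternatives -0.36 to -0.09) and Ftl1 -0.31 (-0.34 to -0.28, alternatives -0.38 to 0.06), and in macrophages with both marker sets Fth1 gave -0.38 (-0.43 to -0.33, alternatives -0.95 to -0.09). In Ly6c2 monocytes Fth1 was lower with NAM, at 14331 and 12889 CPM (-0.15, -0.18 to -0.12). In T cells Ftl1 was higher with NAM, at 1943 and 2512 CPM (0.37, 0.29 to 0.45, alternatives 0.31 to 0.49). That gap was 0.13 in CD8 T cells, 0.50 in regulatory-like T cells and 0.88 (247 and 578 UMIs, 0.66 to 1.10, alternatives 0.44 to 0.92) in the other T cells. Neutrophil genes in the same T cells went from 18 to 133 UMIs, with 4 of 5 genes higher, and mast cell genes from 97 to 30 UMIs. Their part in the Ftl1 difference was not tested.

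Slc40a1 (chr1:45908068-45926523, minus strand), the iron exporter, had few UMIs and was the member with the largest difference between the libraries in pooled macrophages. Over all cells it had 178 UMIs in 93 cells (3.18%) of the untreated library and 62 UMIs in 36 cells (1.10%) of the NAM library. Macrophages held 167 of the 178 and 55 of the 62. Their level was 8.0 and 2.38 CPM, a log2 ratio of -1.75 (-2.22 to -1.30), and it stayed between -2.17 and -1.66 over 11 alternatives, with -1.87 at a fixed makeup of macrophage gates. The share of macrophages with a UMI was 4.33% (3.48 to 5.33) and 1.41% (0.957 to 1.99), or 1.71% and 0.544% after thinning. T cells held 0 and 1 UMI, Ly6c2 monocytes 1 and 0, and NK cells none, which at their depth allows up to 9.12 and 19.2 CPM.

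The difference was spread unevenly over macrophages. The Vcam1 Dnase1l3 gate held 71 UMIs in 42 of 555 cells in the untreated library and 11 in 8 of 559 in the NAM library (-2.68, -3.74 to -1.75). The other macrophages held 59 and 15 UMIs (-2.19, -3.12 to -1.36) and the cycling gate 18 and 7 (-1.34, -2.85 to -0.02). The Mmp12 gate held 13 and 9 UMIs (-1.33, -2.73 to 0.0099), and macrophages with both marker sets 3 and 13 (1.07, -0.79 to 3.53), intervals that hold 0. No cell held more than 10 Slc40a1 UMIs, and the 10 highest cells of each library held 65 and 35.

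Macrophages with an Slc40a1 UMI more often carried Hmox1 and Cd163. After thinning, an Hmox1 UMI was found in 48.8% (37.9 to 59.9) of the 86 macrophages with Slc40a1 and in 32.5% (30.4 to 34.7) of the 1898 without, in the untreated library. In the NAM library the shares were 67.7% (48.6 to 83.3) of 31 cells and 25.8% (24.0 to 27.7) of 2174. For Cd163, the receptor that takes up haemoglobin bound to haptoglobin, they were 20.9% (12.9 to 31.0) against 5.80% (4.79 to 6.94) and 19.4% (7.45 to 37.5) against 3.91% (3.13 to 4.81). For Blvrb they were 54.7% (43.5 to 65.4) against 44.6% (42.3 to 46.8) in the untreated library, which overlap, and 71.0% (52.0 to 85.8) against 42.5% (40.5 to 44.7) with NAM. For Gclm they were 3.49% against 6.59% and 9.68% against 5.66%, with overlapping intervals in both libraries. The cells with Slc40a1 were deeper before thinning, with a median of 11349 against 9772.5 UMIs in the untreated and 12075 against 9782 in the NAM library.

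Slc11a1 (chr1:74375195-74386062, plus strand) was a gene of monocytes, macrophages and the Tgfbi Htra3 cells (88.9 and 58.7 CPM), and not of all myeloid cells. It was highest in Ly6c2 monocytes at 164 and 117 CPM, followed by macrophages with both marker sets at 146 and 117, and these neighbours overlap. The Vcam1 Dnase1l3 macrophages came next at 109 and 116 CPM. The Ctsk Acp5 cells held 10.1 and 7.96 CPM, cDC1 11.4 and 6.35, Cd209a DC 5.51 and 14.3, T cells 8.33 and 6.09, and mature DC and NK cells 0 UMIs. A UMI was found in 54.0% and 54.8% of macrophages (24.7% and 24.1% thinned) and in 2.48% and 3.33% of T cells (1.98% and 2.59% thinned). In macrophages the libraries matched closely, at 92.1 and 92.7 CPM (0.01, -0.08 to 0.10). In Ly6c2 monocytes the ratio was -0.49 (-0.80 to -0.19, alternatives -0.55 to -0.42), and in Tgfbi Htra3 cells -0.60 (92 and 67 UMIs, -1.08 to -0.13).

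Txnrd1 (chr10:82833951-82897712, plus strand) encodes thioredoxin reductase 1, which keeps cytosolic thioredoxin reduced. It was highest in the Ly6c2 monocytes of the untreated library at 177 CPM, where the NAM library stood at 74.4 CPM. Mature DC stood at 98.6 and 115 CPM, from 14 and 12 UMIs, above the monocytes in the NAM library. The Ctsk Acp5 cells stood at 83.2 and 73.6 CPM. The monocyte UMIs were 248 and 98, the log2 ratio was -1.25 (-1.60 to -0.91) and the alternatives ran from -1.37 to -1.19. The share of monocytes with a UMI was 51.9% (44.9 to 58.8) and 29.6% (23.7 to 35.9), or 36.2% and 18.7% after thinning, against 12.9% and 13% of T cells (9.41% and 8.89% thinned). No monocyte held more than 8 and 5 UMIs, so the difference was not carried by a few cells. In macrophages the gene stood at 50.8 and 38.6 CPM (-0.40, -0.53 to -0.27, alternatives -0.44 to -0.36). It was lower with NAM in the Mmp12 gate (60 and 60 UMIs, -0.80, -1.34 to -0.26, alternatives -1.09 to -0.62), the other macrophages (-0.64, -0.83 to -0.44, alternatives -0.65 to -0.38) and the Tgfbi Htra3 cells (-0.76, -1.23 to -0.29, alternatives -0.97 to -0.27). In cycling macrophages the ratio was 0.03 (-0.29 to 0.34). In cDC1 the gene had 20 and 5 UMIs.

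Srxn1 (chr2:152105516-152111376, plus strand) encodes sulfiredoxin, which restores over-oxidised peroxiredoxins. In the untreated library it was highest in Mmp12 macrophages at 66.3 CPM and in Ly6c2 monocytes at 60.8 CPM; in the NAM library these stood at 50.9 and 50.9 CPM. All macrophages together did not differ, at 30.7 and 30.8 CPM (0.01, -0.15 to 0.16). Within them the Mmp12 gate gave -0.38 (51 and 68 UMIs, -0.93 to 0.17), an interval that holds 0, with alternatives from -1.03 to 0.06. The interferon-high gate gave -0.99 from 60 and 31 UMIs (-1.66 to -0.34). The Ctsk Acp5 cells were higher with NAM, at 24.2 and 36.6 CPM (0.60, 0.10 to 1.11, alternatives 0.54 to 0.77). In cDC1 there were 21 UMIs in untreated and 2 in NAM cells, a ratio of -3.50 (-6.63 to -1.46) from 28 and 32 cells.

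Gclm (chr3:122245557-122270732, plus strand) encodes the modifier subunit of the enzyme that starts glutathione synthesis. Its level lay between 13.8 and 50.7 CPM in every gate with 10 or more UMIs over both libraries except the Mmp12 macrophages of the untreated library at 55.9 CPM. T cells, at 27.8 and 29.1 CPM, were level with macrophages at 25.9 and 22.6 CPM. The macrophage ratio was -0.20 (-0.38 to -0.02). In the Mmp12 gate it was -0.37 (43 and 58 UMIs, -0.96 to 0.24), and the alternatives ran from -0.39 to 0.56.

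Nqo1 (chr8:107388225-107403206, minus strand), a quinone reductase often used to read out Nrf2, had 20 UMIs in untreated and 22 in NAM cells of any type, of which 16 and 19 lay in macrophages (0.767 and 0.823 CPM). A difference was not detectable at this depth.

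**Figure D4:**
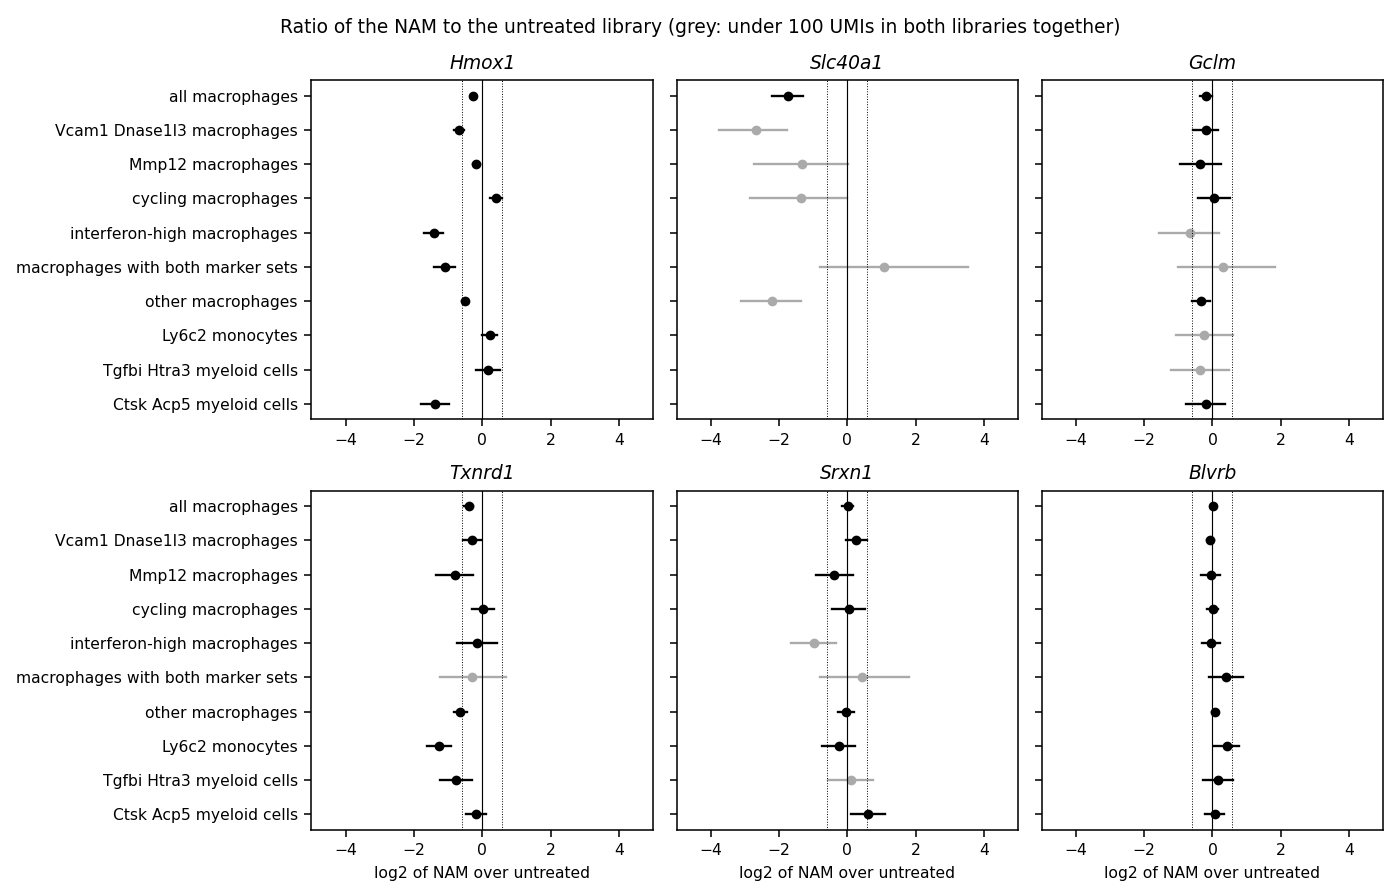
Log2 ratio of NAM over untreated (horizontal axis) for 6 members in the macrophage gates and 3 other myeloid gates, with exact 95% intervals as bars, dotted lines at 1.5-fold, and grey for under 100 UMIs over both libraries. The ratios of Slc40a1 in all macrophages (-1.75) and of Txnrd1 in Ly6c2 monocytes (-1.25) lie below 0 with their intervals, while Blvrb in all macrophages is at 0.02.

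In the gates and pools counted here, few of the 10 differed by 1.5-fold or more between the libraries. Further ratios past that mark in other gates, of Hmox1, Ftl1, Slc11a1, Txnrd1 and Srxn1, are given elsewhere and are not in these counts. A gene was counted where it had 100 or more UMIs over both libraries, and the percent of all genes so counted is given for comparison. In all macrophages 9 members were counted, with 0 higher and 1 lower with NAM (Slc40a1), against 0.992% of genes higher and 3.97% lower. In Ly6c2 monocytes 7 were counted, with 0 higher and 1 lower (Txnrd1), against 3.41% and 6.52%, and the 1 became 2 with gates on thinned counts and under stricter gates. In T cells 3 were counted, with 1 higher (Hmox1, from the droplet described above) and 0 lower, against 3.05% and 3.73%. In Vcam1 Dnase1l3 macrophages 8 were counted, with 0 higher and 1 lower (Hmox1), against 1.22% and 4.4%, and the 1 became 0 with gates on thinned counts and under stricter gates. In Mmp12 macrophages 8 were counted, with 0 higher and 1 lower (Txnrd1), against 3.57% and 4.02%. These counts became 2 higher and 0 lower once the 5 highest cells per library were left out, 0 lower without the 5% deepest cells and 2 lower with cells weighted alike. At 0 lower, Txnrd1 had fallen below the 100 UMIs needed, and its ratio stayed between -1.09 and -0.62 over all alternatives. The median log2 ratio of the counted members was -0.04 in macrophages and -0.15 in monocytes, beside -0.03 and -0.02 over all genes counted.

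Between cell types more members differed. The genes and gates were chosen with earlier results of these data known, so these counts only describe. Of 8 counted members, 6 were higher in Mmp12 than in Vcam1 Dnase1l3 macrophages of the untreated library (Hmox1, Fth1, Ftl1, Gclm, Txnrd1 and Srxn1) and 0 lower, where 8.48% of all genes counted were higher and 13.9% lower. In the NAM library 8 were counted, with 4 higher (Hmox1, Fth1, Ftl1 and Gclm) and 0 lower, against 8.86% and 13.4%. Gclm stood 1.24 (0.71 to 1.74) and 1.06 (0.59 to 1.53) log2 units higher in the Mmp12 gate. Txnrd1 stood 0.77 (0.34 to 1.18) higher in the untreated library and 0.27 (-0.17 to 0.69) in the NAM library. The gap of Srxn1 was 1.12 (0.64 to 1.57) in the untreated and 0.47 (0.052 to 0.87) in the NAM library, and the latter ran from -0.04 to 0.68 over the alternatives. The transporter Slc11a1 gave log2 ratios of -0.56 (-0.97 to -0.16) and -0.18 (-0.45 to 0.09), and Blvrb -0.24 and -0.23.

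Monocytes and macrophages were compared in the same way. Of 9 counted in the untreated library, 3 were higher in Ly6c2 monocytes (Txnrd1, Srxn1 and Slc11a1) and 2 lower (Blvrb and Slc40a1), where 11.3% of all genes were higher and 26.6% lower. In the NAM library 8 were counted, with 2 higher (Txnrd1 and Srxn1) and 1 lower (Blvrb), against 10.5% and 28.6%. The gap of Txnrd1 was 1.80 (1.60 to 2.00) in the untreated and 0.95 (0.63 to 1.25) in the NAM library. That of Srxn1 was 0.99 (0.64 to 1.31) and 0.72 (0.34 to 1.08), and that of Slc11a1 0.84 (0.63 to 1.03) and 0.34 (0.09 to 0.57). Slc40a1 had 1 monocyte UMI against 167 in macrophages of the untreated library (-3.49, -8.80 to -0.99). In this contrast the median of all genes was itself -0.17 and -0.20.

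In the wider iron pathway few genes differed between the libraries in macrophages. A list of 42 other genes of iron uptake, storage, export and heme, of which 39 were in the files, had a median log2 ratio of -0.14 in macrophages beside -0.04 over all genes. Of 26 counted genes, 0 were higher by 1.5-fold and 2 lower, beside 0.992% and 3.97% of all genes. These were the haemoglobin receptor Cd163, with 602 and 349 UMIs (-0.93, -1.13 to -0.74), and the endosomal ferrireductase Steap3, with 174 and 125 UMIs (-0.62, -0.97 to -0.28). In Ly6c2 monocytes the list's median was 0.20 beside -0.05, with 3 of 11 counted genes higher and 0 lower, beside 3.41% and 6.52% of all genes. The 3 were Fbxl5, an iron-sensing ubiquitin ligase subunit (76 and 146 UMIs, 1.03, 0.62 to 1.45), Slc48a1, a heme transporter of the lysosome (41 and 76 UMIs, 0.98, 0.41 to 1.56), and Bach1 (47 and 74 UMIs, 0.74, 0.20 to 1.30). In Vcam1 Dnase1l3 macrophages 0 of 22 counted genes were higher and 2 lower (Cd163 and the divalent metal transporter Slc11a2), beside 1.22% and 4.4% of all genes. In Mmp12 macrophages 1 of 8 was higher (Slc48a1) and 0 lower, beside 3.57% and 4.02%, and in T cells 0 of 6 were higher and 1 lower, the transferrin gene Trf, beside 3.05% and 3.73%. Slc11a2 and Trf were named after their values were seen.

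A list of 46 other Nrf2 regulators and targets had a median of -0.03 in macrophages beside -0.04 over all genes, with 0 of 39 counted genes higher and 1 lower, beside 0.992% and 3.97% of all genes. The 1 was Osgin1 (110 and 72 UMIs, -0.76, -1.21 to -0.32). In Ly6c2 monocytes its median was -0.06 beside -0.05, and of 23 counted genes 3 were higher and 2 lower, beside 3.41% and 6.52% of all genes. Higher with NAM were Mgst1, a microsomal glutathione transferase (87 and 227 UMIs, 1.47, 1.11 to 1.84), the peroxiredoxin Prdx6 (266 and 412 UMIs, 0.72, 0.49 to 0.95) and Bach1, which is in both lists. Lower were the autophagy receptor Sqstm1 (620 and 343 UMIs, -0.77, -0.96 to -0.57) and the mitochondrial superoxide dismutase Sod2 (941 and 584 UMIs, -0.60, -0.75 to -0.45). The regulators themselves hardly differed in macrophages, with -0.02 for Nfe2l2 (238 and 234 CPM), -0.20 for Keap1 and -0.20 for Bach1. In monocytes Nfe2l2 gave 0.02 and Keap1 -0.44 from 39 and 27 UMIs. In T cells 1 of 19 counted genes was higher and 0 lower, in Vcam1 Dnase1l3 macrophages 1 of 35 higher and 0 lower, and in Mmp12 macrophages 1 of 20 higher and 0 lower. These counts stand beside the shares of all genes given for the iron list. The gene was Gstp1, a glutathione transferase, in T cells and in the Vcam1 Dnase1l3 gate and Sod2 in the Mmp12 gate, Gstp1 being named after its values were seen.

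**Figure D5:**
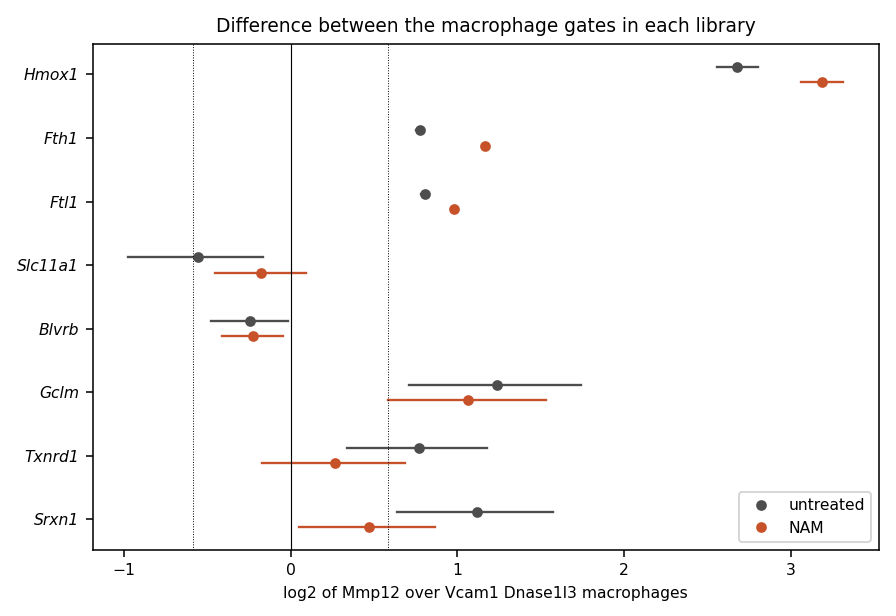
Log2 ratio of Mmp12 over Vcam1 Dnase1l3 macrophages for the 8 members with enough UMIs (horizontal axis), with the untreated and the NAM library as separate points, exact 95% intervals as bars and dotted lines at 1.5-fold. Hmox1 stands apart at 2.68 and 3.19, both ferritin genes lie between 0.78 and 1.17, and Srxn1 is at 1.12 in untreated and 0.47 in NAM cells.

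The Nrf2 list was also read across macrophage subsets. In Mmp12 against Vcam1 Dnase1l3 macrophages 8 of 31 counted genes were higher and 4 lower in the untreated library, and 7 of 33 higher and 3 lower in the NAM library. Over all genes counted 8.48% were higher and 13.9% lower in the untreated library, and 8.86% and 13.4% in the NAM library, so the lower genes lay near the share of all genes. The libraries shared 6 genes that were higher and 3 that were lower, which were singled out after their values were seen. Higher were the metallothioneins Mt1 (log2 gaps of 1.83 and 1.55) and Mt2 (3.08 and 2.40), the glutathione genes Gpx1 (0.95 and 0.69), Gsr (1.00 and 0.63) and Gstm1 (1.45 and 1.53), and the peroxiredoxin Prdx1 (1.13 and 0.80). Nfe2l2 itself was lower, 170.4 against 303 CPM in the untreated and 191 against 324 CPM in the NAM library (-0.83 and -0.77), as were the small Maf gene Maff (-1.17 and -0.69). Gstp1 gave -0.95 from 7 UMIs in the Mmp12 gate of the untreated library (-2.30 to 0.14), an interval that holds 0, and -0.62 (-1.28 to -0.024) in the NAM library. Of the iron list, 3 of 17 and 2 of 18 counted genes were higher in the Mmp12 gate (Lrp1 in both libraries, 0.75 and 0.70) and 5 and 7 lower, beside the same 8.48% and 8.86% of all genes higher and 13.9% and 13.4% lower. Lower in both were the ferroxidase Cp (-2.30 and -1.83), Hfe (-1.55 and -1.22), Alas1 (-0.66 and -0.71) and Spic, a transcription factor of iron-recycling macrophages. Spic had 1 UMI in the Mmp12 gate and 124 in the Vcam1 Dnase1l3 gate of the untreated library (-4.04, -9.36 to -1.54), and 7 and 97 in the NAM library (-1.69, -3.04 to -0.59).

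The genes whose levels most resembled each member were sought over 21 points, each a gate of 50 or more cells in 1 library, among 5382 genes with 1000 or more UMIs. The points share their libraries and differ in depth, so the correlations only describe likeness. Hmox1 was most like Gstm1 (Pearson's r 0.93), Fth1 (0.93), Ctsl (0.92), Brox (0.92) and Plin2 (0.91). Fth1 was most like Plin2 (0.98), Ninj1, Ctsl, Sdcbp and Gabarap, and Ftl1 like Psap (0.98), Bri3, Slc6a6, Lmo2 and Gabarap. Slc11a1 was most like Nlrp3 (0.98), AF251705, Cybb, Cd300a and Nfe2l2, Cybb encoding the catalytic subunit of the phagocyte oxidase. Blvrb was most like Cpq (0.97), Lmo2, Fez2, Camk1 and Tbxas1. Txnrd1 was most like Pitpna (0.89), Hax1, Map4k4, Capn2 and Antxr2, Srxn1 like Card19 (0.84), Adam8, Lgals3, Csf2rb2 and Mdm2, and Gclm, the least patterned, like Rbms2 (0.79), Fkbp8, Grhpr, Kcnab2 and Myo9b. Slc40a1 and Nqo1 had under 1000 UMIs and were not searched.

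Relations were also read over single cells. Fth1 and Hmox1 had an r of 0.93 over the 21 points, and over single macrophages thinned to 3000 UMIs their Spearman's rho was 0.08 in untreated and 0.17 in NAM cells. Fth1 and Ftl1 had a rho of 0.42 in untreated and 0.41 in NAM cells, and Hmox1 and Ftl1 reached 0.20 and 0.25. In sparse counts a low rho is not evidence of independence.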

How the data were processed

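Leukocytes enriched on CD45 beads from 2 pooled tumour suspensions, 1 untreated and 1 NAM, were run on 10x Genomics 3′ chemistry. According to the methods and the submitters' processing notes, the authors demultiplexed, aligned to mm10 and counted UMIs with Cell Ranger; the annotation release is not given in the sources used here. The deposited values are raw UMI counts per gene and cell, and no cell lay under 1000 genes or 3000 UMIs or over 10% mitochondrial UMIs, so no further filter was applied. Doublets were not called. Droplets that met the gates of 2 lineages (44 and 47) were left out, and 113 and 139 cells met no gate. The libraries shared 11 cell barcodes.

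The 10 genes, the pathway lists and the gates were chosen with earlier results of these data known, and the marker minimums were set from marker distributions alone. Cells were gated on summed UMIs, with minimums of 20 for C1qa, C1qb and C1qc, 5 for Mmp12, 3 for Vcam1 and Dnase1l3, 5 for the cycling genes, 10 for the interferon genes, 20 for Ctsk, Acp5 and Mmp9, 5 for Tgfbi and Htra3, 2 for Ly6c2 with 5 for Ly6c2, Plac8, Ccr2 and Chil3, and 3 for the Cd3 genes. UMIs were summed per gate and library. Sums have exact Poisson intervals, shares exact Clopper-Pearson intervals and ratios exact conditional binomial intervals, all at 95%. A planned marker of the Mmp12 gate and a planned red blood cell gene are not reported here, so that gate and that list were redrawn without them after the data were seen. PCR duplicates are collapsed by the identifiers, and intervals and floors (3 counts for a count of 0) do not cover the spread between mice. Since a group is 1 library, no p-value was made from cells. The named genes were all 10 members in every gate, each pathway gene past 1.5-fold with 100 or more UMIs in macrophages or Ly6c2 monocytes, the regulators Nfe2l2, Keap1 and Bach1, and 5 neighbours a member, found on log2 CPM with a pseudocount of 10. List medians used genes with 20 or more UMIs and a pseudocount of 0.5 UMIs. Hjv, Flvcr1 and Flvcr2 of the iron list were not matched by symbol.

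Gene positions are those of GENCODE on GRCm38, and promoter windows those of RefSeq on GRCm38.p6. The alternatives redrew gates on counts thinned to 3000 UMIs or with minimums raised 2 times, kept droplets of 2 lineages, rescaled the totals in 2 ways, weighted cells alike, and left out the 5 cells highest in the gene or the 5% deepest cells. Leaving out cells with shared barcodes or red blood cell RNA, and a fixed makeup of macrophage gates, were chosen after seeing the data. The interval and ratio code was tested on simulated data. Python 3.11.15, NumPy 2.4.6, SciPy 1.17.1 and matplotlib 3.10.9 were used.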

Additional observations from a re-analysis of the deposited data

Results flagged for a closer look

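The NAM library held 23280 UMIs of the red blood cell list against 596 in the untreated library, a signal in genes that none of the comparisons uses. Of these, 21957 lay in 5 droplets, and the rest amounted to 1323 UMIs.

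The log2 ratio of Hmox1 in regulatory-like T cells was opposite in direction to that in 4 myeloid gates, counting gates with a ratio at 1.5-fold or more, 100 or more UMIs and an interval on its own side of 0. The ratio exceeded that of Vcam1 Dnase1l3 macrophages by 3.78, of macrophages with both marker sets by 4.2, of Ctsk Acp5 cells by 4.49 and of interferon-high macrophages by 4.52. A single droplet held 103 of the 109 UMIs behind the T cell value. None of these differences between cell types was tested, since each rests on the same 2 libraries.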

How the results depend on the processing

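Of 988 values of single genes under an alternative, 807 stayed within the counting interval of the value reported, 174 did not, and 7, all of Hmox1, changed sign from a result at 1.5-fold or more. In macrophages with both marker sets, 19 and 37 cells, the sign changed to 2.78 under stricter gates and to 0.71 without the 5 cells highest in the gene. In T cells Hmox1 gave -0.39 with gates on thinned counts, -0.45 under stricter gates and -0.79 without the 5 highest cells, and in regulatory-like T cells -0.16 with gates on thinned counts and -1.80 without the 5 highest cells. Of 15 results at 1.5-fold or more, 127 of 150 alternative values kept the fold and the direction. The number of members lower with NAM in Ly6c2 monocytes became 2 with gates on thinned counts and 2 under stricter gates, and that in Vcam1 Dnase1l3 macrophages became 0 with gates on thinned counts and 0 under stricter gates. In Mmp12 macrophages it became 2 with cells weighted alike, 0 without the 5 highest cells and 0 without the 5% of cells with most UMIs, where Txnrd1 fell below the 100 UMIs needed, and the number higher became 2 without the 5 highest cells. Between the Mmp12 and Vcam1 Dnase1l3 gates and between monocytes and macrophages, all 90 alternative values of the 18 gaps at 1.5-fold or more kept the fold and the direction. These were 5 alternatives of gating, scaling and weighting. The gaps were not read without the highest or deepest cells, shared barcodes or red blood cell droplets. Over the alternatives the iron list's median ran from -0.20 to -0.11 in macrophages and from 0.14 to 0.22 in monocytes, and the Nrf2 list's from -0.06 to -0.03 in monocytes. Leaving out the 5 droplets with red blood cell RNA, or cells with shared barcodes, turned no ratio between the libraries at 1.5-fold or more. No paired analysis was possible because each group is 1 library. Genes with few UMIs (Nqo1, and Slc40a1 outside macrophages) limit any comparison at this depth.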
